A study of Rattus norvegicus with 22 samples.

Results

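The genes described here are 42 interferon-stimulated genes, a list of transcripts that cells of most tissues make in response to interferons. They were chosen by name, with earlier results of these data known. A gene was taken as measured when its symbol was the gene name of a non-control probe on the array, and where a symbol had several probes the brightest over all arrays stood for it. Of the 42 genes, 39 were found in this way, among 19167 named genes on the array. Ifi47, Parp14 and Xaf1 had no probe under these symbols and were not analysed here. A probe counts as detected on an array where the scanner software marked its signal as well above background. By that mark 31 of the 39 genes were detected on all 22 arrays, and 5 (Oasl, Oas3, Ifih1, Oas2 and Ifit1) were undetected throughout the normal tissue.

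The study set squamous cell carcinoma of the tongue (OSCC) against phenotypically normal tongue tissue of the same animal in 11 male F344 rats, with 1 single-color array for each tissue of each rat. The rats drank water with 20 ppm of the carcinogen 4-nitroquinoline-1-oxide (4-NQO) over 10 weeks, and tissue was taken 23 to 26 weeks after the first exposure, at an age of approximately 33 weeks. The labels give the normal tissue no treatment and call all animals untreated in the titles, whereas the protocols and the methods of the study place both tissues in 4-NQO-treated rats, so the normal tissue had also met the carcinogen and no unexposed rat was part of the comparison. Each piece was a mixture of cells, and a larger share of one cell type and more RNA per cell of that type cannot be told apart in it. The epithelial keratin genes Krt5, Krt14 and Krt13 were detected on all arrays of both tissues.

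Interferons are secreted proteins that alert cells to viruses and shape the immune response to tumors. Type I interferons bind the receptor chains Ifnar1 and Ifnar2, whose kinases Jak1 and Tyk2 activate transcription factors. A complex that includes Stat2 and Irf9 then binds the interferon-stimulated response element (ISRE). Type II interferon (Ifng) acts through Ifngr1 and Ifngr2, and its target genes carry the gamma-activated site (GAS). The induced genes include sensors of viral nucleic acid, enzymes that degrade viral RNA, and the ubiquitin-like protein Isg15.

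Levels are given as the log2 signal of the probe minus the 75th percentile of log2 signals on its array, and differences are OSCC minus normal on that log2 scale. A gene is said to have risen or fallen where the adjusted p of the paired limma test was below 0.05, and to have been called where the change was also 2-fold or more. Over the 11 pairs 5 of the 39 genes were called higher, which is 12.8% of them, beside 7.48% of all genes, and 0 were called lower, beside 7.24% of all genes (2 were lower at an unadjusted p below 0.05 in limma and in the paired t-test of the study's methods, neither of them by 2-fold). At the adjusted p alone and at any fold, 14 of the 39 genes rose (35.9% of them, beside 17.0% of all genes) and 2 fell (5.13%, beside 27.9% of all genes), while 23 did not pass. The 14 became 8 without animal 11, 13, 16, 25 or 26, 6 after normexp correction, 5 in the pairs scanned on different days and 0 with scan day as a term. The median difference of the 39 genes was 0.34 and that of all genes was -0.21. With only probes detected on at least 11 arrays, the members' median was 0.33 and that of all probes was -0.04. In no member did the OSCC arrays lie wholly above or wholly below the normal arrays, which was so for 0.694% and 0.965% of all genes. The 5 called genes were Ifit3, Oasl, Isg15, Ifitm1 and Oas3.

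**Figure D1:**
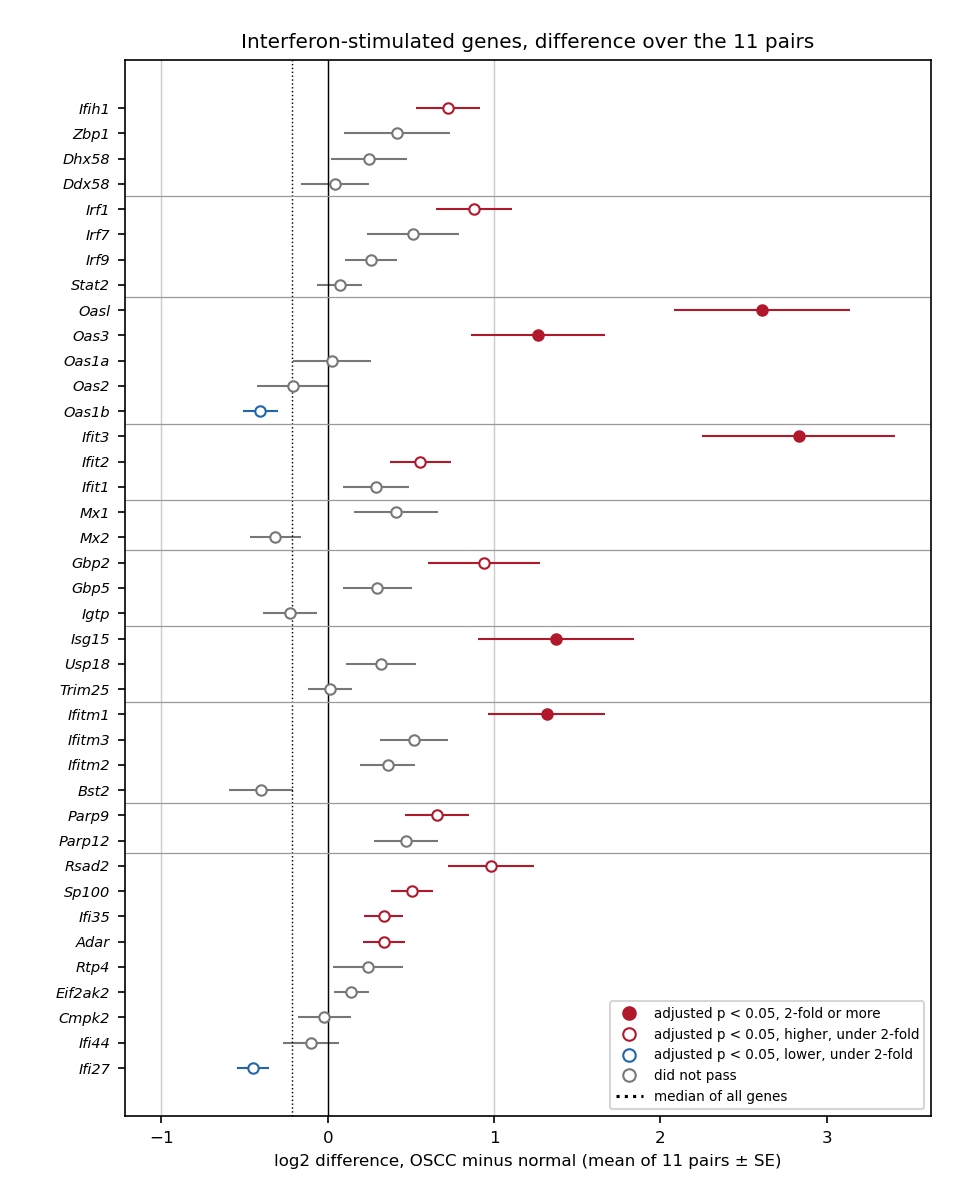
The mean log2 difference between OSCC and normal tissue over 11 pairs is plotted with its standard error for 39 interferon-stimulated genes, grouped by role. Ifit3 and Oasl lie farthest to the right at 2.83 and 2.61, most genes lie between 0 and 1, and the dotted line marks the median of all genes at -0.21.

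Scan day ran almost together with tissue. The day on which all normal arrays were scanned also took the OSCC arrays of animals 4 and 9, while the remaining 9 OSCC arrays followed on a later day, and no slide held both tissues. With scan day as a further term in limma, beside rat, the difference rests on the pairs of animals 4 and 9 alone. In that fit 0 members were called, 1 was higher and 2 were lower at an unadjusted p below 0.05, and of all 30367 probes 3 were called. With 2 pairs behind it, a call lost in that fit says little about the gene. The median difference of the members in these 2 pairs, and so in that fit, was 0.36, close to the 0.34 over all pairs. In the 9 pairs scanned on different days it was 0.33 with 3 members called. The part of the scan day in single genes was not tested beyond these values.

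Ifit3 belongs to the tetratricopeptide repeat proteins that bind viral RNA and block its translation. Its probe lies at chr1:238575730-238575789 of the rn4 build. In normal tissue its level ran from -2.63 over a median of -2.45 to -1.65, and in OSCC from -2.42 over 1.49 to 2.78. It was higher in OSCC in 11 of 11 pairs, and 7 OSCC arrays lay above the highest normal array, while the other 4 lay within the normal range. The difference was 2.83 ± 0.58 (SE, n = 11 pairs), 7.11-fold, with a limma adjusted p of 0.0029. The pairs split widely: the difference was between 2.66 and 5.16 in animals 4, 9, 11, 13, 16, 25 and 26, and between 0.16 and 0.51 in animals 17, 21, 22 and 24. It stayed between 2.60 and 3.1 when each pair was left out in turn. In the pairs of animals 4 and 9, scanned within 1 day, the differences were 5.14 and 2.66.

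Ifit2, of the same family, rose by less, at 0.56 ± 0.19 (SE, n = 11) with a limma adjusted p of 0.0311, and was higher in 8 of 11 pairs. Ifit1 was detected on a single array, of OSCC, and its fitted difference was 0.29 ± 0.20.

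The oligoadenylate synthetases make the short adenylate chains that switch on the RNA-degrading enzyme RNase L, and Oasl is a related antiviral protein. Oasl went undetected in all 11 normal pieces and was detected in 8 of 11 OSCC. Its levels in OSCC ran from -6.30 over -1.41 to -0.81, against -6.48, -5.24 and -4.31 in normal tissue, and 9 OSCC arrays lay above the highest normal array. The fitted difference was 2.61 ± 0.53 (SE, n = 11 pairs; limma adjusted p = 0.0028). Since the normal arrays give only an upper limit for this probe, a bound of 2.24-fold higher in OSCC was set under the scaling used here. That bound sets the OSCC mean, undetected arrays included, against the lowest detected signal on each normal array, or the signal of the probe itself where higher. It did not hold under other processing. After normexp background correction the difference was 0.89 (limma adjusted p = 0.00998), under 2-fold, and Oasl was not called. That correction also shifted the median of all genes in some pairs, with values given below. The 2 OSCC arrays that stayed low were those of animals 17 and 22, with pair differences of -1.05 and -0.38.

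Oas3 had a fitted difference of 1.27 ± 0.40 (SE, n = 11; limma adjusted p = 0.0268), yet it was detected on only 5 arrays, all of OSCC, and no fold can be given for it. The 5 arrays were those of animals 11, 13, 16, 25 and 26, where the level was between -3.74 and -2.44, and on all other arrays it was at -4.91 or below. With the normexp background correction the difference was 0.20 with an adjusted p of 0.956. In the 2 pairs scanned within 1 day it averaged 0.09. Its call was also lost when any one of the animals 11, 13, 16, 25 and 26 was left out, with limma adjusted p up to 0.0606, and with slide as a random block (1.28, limma adjusted p = 0.0613), where Rsad2 was called in its place (1.01, limma adjusted p = 0.0291). The other members of this family did not follow: Oas1a differed by 0.03 ± 0.24 (SE, n = 11), Oas2 was detected on 2 of 22 arrays, and Oas1b fell by 0.41 on the log2 scale.

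Isg15 is a ubiquitin-like protein that is joined to other proteins and also secreted. Its level in normal tissue ran from -0.57 over -0.21 to 0.73 and in OSCC from -1.13 over 2.11 to 3.06. On 8 OSCC arrays it lay above the highest normal array, and on the other 3, those of animals 17, 22 and 24, it lay below the lowest. The difference was 1.37 ± 0.47 (SE, n = 11), 2.59-fold, with a limma adjusted p of 0.0339. Leaving out 1 of animals 4, 9, 11, 13, 16, 25 or 26 moved the adjusted p above the threshold, to at most 0.0747, with the difference between 1.15 and 1.62 throughout. The call was also lost in the pairs scanned on different days (1.34, limma adjusted p = 0.112), with scan day as a term (1.51, limma adjusted p = 0.347) and in the adjusted paired t-test of the methods (adjusted p = 0.0572). Usp18, the protease that removes Isg15, differed by 0.32 ± 0.21 with the brighter of its probes (limma adjusted p = 0.215) and rose by 0.64 ± 0.20 with the dimmer one (limma adjusted p = 0.0249, n = 11). Trim25, a ligase for Isg15 that also activates the RNA sensor Ddx58, differed by 0.01 ± 0.13.

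Of the interferon-induced transmembrane proteins, which hinder the entry of viruses at membranes, Ifitm1 was called. It ran from 1.66 over 2.12 to 3.0 in normal tissue and from 1.93 over 3.97 to 4.67 in OSCC. Again 8 OSCC arrays lay above every normal array, and the 3 that did not were those of animals 17, 22 and 24. The difference was 1.32 ± 0.35 (SE, n = 11), 2.49-fold, with a limma adjusted p of 0.0121, and the call held with any 1 pair left out. In the 9 pairs scanned on different days the difference was 1.22, with a limma adjusted p of 0.0592. Ifitm3 and Ifitm2 had smaller differences of 0.52 ± 0.21 and 0.36 ± 0.17 that did not pass (limma adjusted p = 0.0555 and 0.0891), each higher in 8 of 11 pairs. Bst2, which tethers budding viruses to the cell, differed by -0.40 ± 0.19 (limma adjusted p = 0.102, n = 11) and was lower in 9 of 11 pairs.

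**Figure D2:**
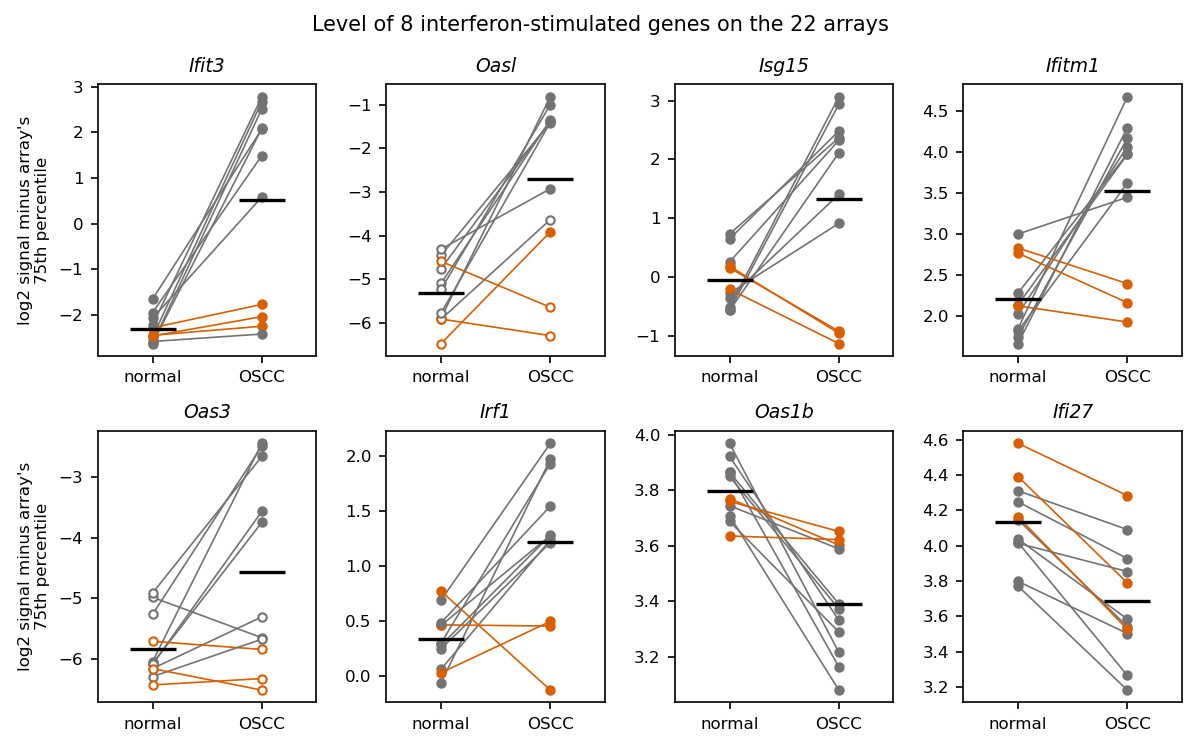
Levels of 8 interferon-stimulated genes on the 22 arrays (log2 signal minus the 75th percentile of the array) are joined for each animal. Open circles mark arrays where the probe was not detected, black bars the means, and orange the pairs of animals 17, 22 and 24, in which Isg15 and Ifitm1 were lower in OSCC.

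Rsad2, Gbp2 and Irf1 rose by just under 2-fold. Rsad2 (viperin, which makes a chain-terminating nucleotide) differed by 0.98 ± 0.26, Gbp2 (a GTPase that attacks the vacuoles of pathogens) by 0.94 ± 0.34 and Irf1 (a transcription factor of the interferon response) by 0.88 ± 0.23 (SE, n = 11; limma adjusted p = 0.0116, 0.0398 and 0.011). All 3 were also at or past 2-fold without animal 22. The second probe of Irf1 gave 1.24 ± 0.23 and was called, with a limma adjusted p of 0.00181, so its probes disagree in the call. For Gbp2 the difference lost its significance with arrays scaled to their median (limma adjusted p = 0.0674), after normexp correction (0.105), with scan day as a term (0.237), in the pairs scanned on different days (0.146), in the paired t-test after adjustment (0.0632) and when any animal but 17, 22 or 24 was left out (up to 0.0868).

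Among the remaining sensors and regulators, Ifih1, a sensor of long double-stranded RNA, had a fitted rise of 0.72 ± 0.19 (limma adjusted p = 0.0128) but was detected on 2 arrays in all. The related sensors Ddx58 and Dhx58 differed by 0.04 ± 0.20 and 0.25 ± 0.23, and the sensor Zbp1 by 0.42 ± 0.32, and none of these passed. Irf7, the regulator that amplifies type I interferon production, differed by 0.51 ± 0.28 (limma adjusted p = 0.143) and was higher in 8 of 11 pairs. Irf9 and Stat2, 2 parts of the factor that binds the ISRE, differed by 0.26 ± 0.16 and 0.07 ± 0.13 and did not pass (SE, n = 11). Mx1, a GTPase active against influenza viruses, differed by 0.41 ± 0.25, and Mx2 by -0.32 ± 0.15 (limma adjusted p = 0.19 and 0.108, n = 11). Smaller rises were those of Parp9 at 0.66 ± 0.19, Sp100 at 0.51 ± 0.13, Ifi35 at 0.34 ± 0.12 and Adar, the RNA-editing enzyme, at 0.34 ± 0.13, each higher in 9 or 10 of 11 pairs. Parp12, Gbp5, Rtp4, Cmpk2 and Ifi44 did not pass, with differences of 0.47 ± 0.19, 0.30 ± 0.21, 0.24 ± 0.21, -0.02 ± 0.16 and -0.10 ± 0.17.

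The genes with the brightest probes did not rise. Ifi27, Ifitm2, Oas1b, Igtp and Bst2 had the 5 highest mean signals of the 39. Ifi27, a small membrane protein, was lower in OSCC in 11 of 11 pairs. It ran from 3.77 over 4.15 to 4.58 in normal tissue and from 3.18 over 3.58 to 4.28 in OSCC, a difference of -0.45 ± 0.10 (SE, n = 11; limma adjusted p = 0.00353). Oas1b was likewise lower in 11 of 11 pairs, from 3.64 over 3.77 to 3.97 in normal tissue and from 3.08 over 3.37 to 3.65 in OSCC, a difference of -0.41 ± 0.10 (SE, n = 11; limma adjusted p = 0.0102). The median of all genes was itself -0.21, and Ifi27 lay 0.24 and Oas1b 0.19 below that median. Under quantile normalization Ifi27 and Oas1b differed by -0.27 and -0.26. Igtp, an immunity-related GTPase, differed by -0.23 ± 0.16 with its bright probe and by 0.16 ± 0.21 with its second probe (limma adjusted p = 0.261 and 0.537, n = 11).

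The higher levels were not seen in all animals. The median difference of the 39 genes lay above that of all genes in 8 of 11 pairs, and it was largest in the pairs of animals 25 and 11. In animal 25 it was 1.15 against -0.35 for all genes, and 23 of the 39 genes were at least 2-fold higher (13.9% of all genes) and 0 at least 2-fold lower (35.4%). In animal 11 it was 1.04 against -0.30, with 22 genes higher (15.4% of all genes) and 0 lower (15.4%). The values of all genes depended on dim probes. With only probes detected on at least 11 arrays, the medians were 1.12 against 0.013 in animal 25 and 1.02 against -0.036 in animal 11. The share of genes at least 2-fold lower was then 17.5% in animal 25 and 17.9% in animal 11. No other pair had as many members at 2-fold, and Irf7, Mx1, Dhx58 and Zbp1 were above 1 in both. The 2-fold counts of this and the next paragraphs include members undetected on both arrays of a pair. In animal 11 these were Ifit1 and Ifih1, both among the 22.

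A middle range held 6 pairs. The medians were 0.53 in animal 21, 0.47 in animal 26, 0.45 in animal 9, 0.42 in animal 16, 0.38 in animal 13 and 0.25 in animal 4. In animal 4, 10 members were at least 2-fold higher and 0 lower, beside 9.40% and 32.4% of all genes. In animal 9, 9 were higher and 3 lower, beside 12.8% and 27.9%. Of the 3 lower, Ifit1 (-1.01) and Oas2 (-1.17) were undetected on both arrays. In animal 13, 6 were higher and 1 lower, beside 13.0% and 16.4%. In animal 16, 7 were higher and 0 lower, beside 10.2% and 12.3%. In animal 26, 9 were higher and 0 lower, beside 12.3% and 29.1%. With only probes detected on at least 11 arrays, 12.8%, 14.2%, 17.2%, 13.3% and 17.6% of genes were lower in animals 4, 9, 13, 16 and 26. The members' median less that of all genes was then 0.28, 0.48, 0.25, 0.42 and 0.48. The pairs of animals 4, 9, 13, 16 and 26 had Ifit3, Oasl, Isg15 and Ifitm1 in common, all higher by more than 1 in each. Animal 21 differed from them, with 10 members higher and 0 lower (10.7% and 6.19% of all genes), in that Isg15 was 1.76 and Oasl 2.29 higher but Ifit3 only 0.16 and Ifitm1 0.45. Oasl was undetected on both arrays of animal 21.

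In the pairs of animals 17, 22 and 24 the members' medians were -0.30, -0.40 and -0.01, each below the median of all genes (0.05, 0.04 and 0.07). In animal 17, 0 members were at least 2-fold higher and 7 lower, beside 9.84% and 12.1% of all genes. In animal 22, 0 were higher and 5 lower, beside 7.25% and 3.65%. In animal 24, 4 were higher and 2 lower, beside 18.8% and 7.44%. Counted though undetected on both arrays were Oasl (-1.05) in animal 17, Oas2 (-1.04) in animal 22 and Ifih1 (1.17) in animal 24. Isg15 differed by -0.92, -1.14 and -1.08 in these 3 pairs, and Gbp2 by -0.55, -1.38 and -0.42. Ifit3 differed by 0.20, 0.42 and 0.51. With 1 array per tissue of an animal no test of a single pair is possible, and the pairs are described only.

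**Figure D3:**
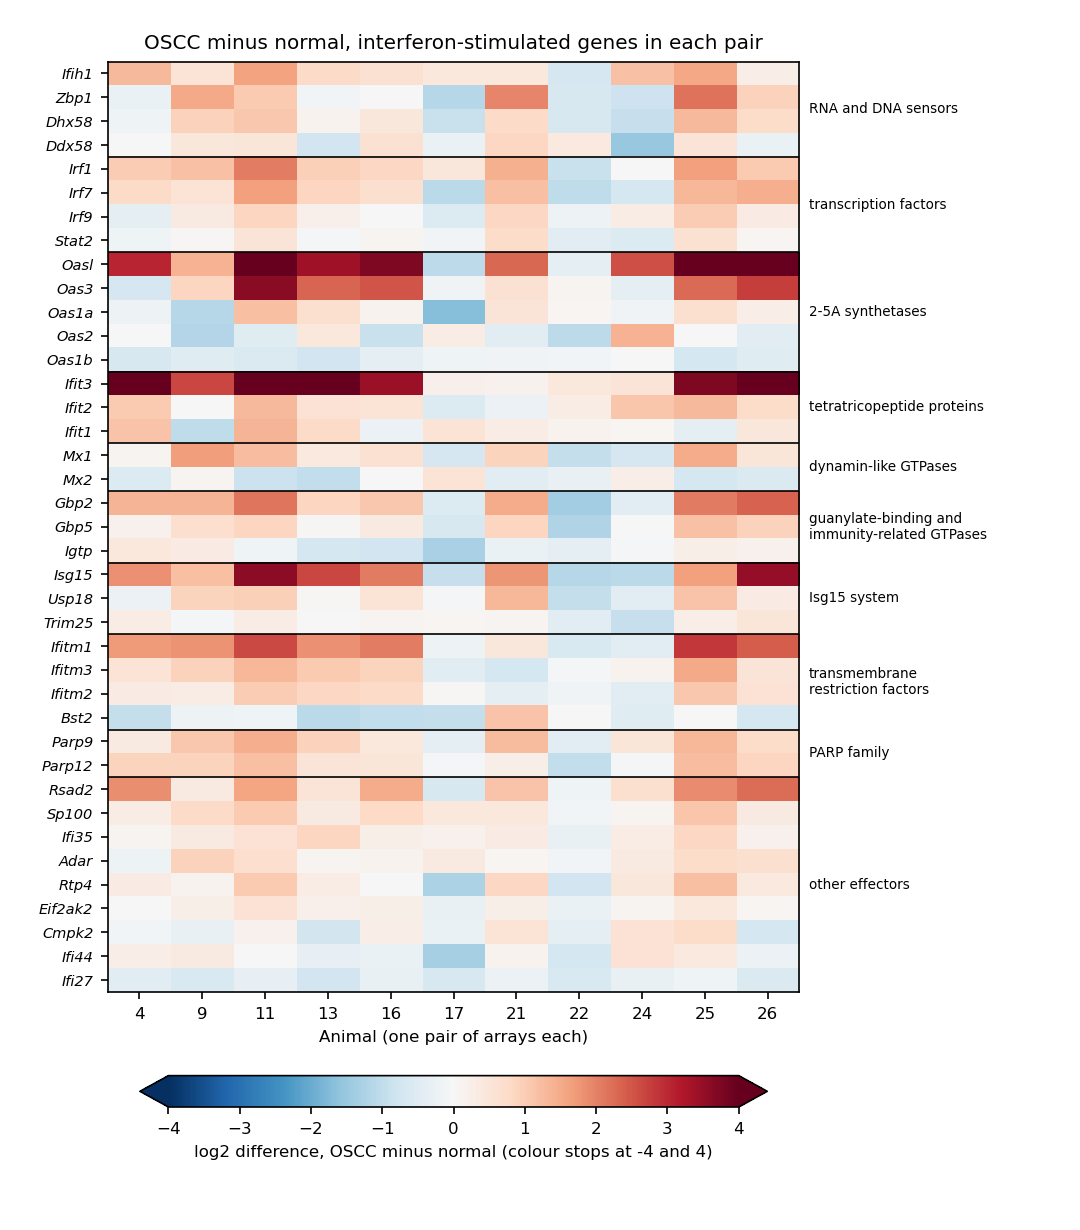
The log2 difference between OSCC and normal tissue is shown by color for 39 interferon-stimulated genes (rows, grouped by role) in the pairs of 11 animals (columns). Animals 11 and 25 are red in most rows, animals 17 and 22 are mostly pale or blue, and Oasl, Ifit3, Oas3 and Isg15 hold the darkest cells.

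The pairs also differed in their cell type markers. The median difference of 6 leukocyte genes (Ptprc, Laptm5, Coro1a, Cd53, Tyrobp and Fcer1g), all of which rose, was between 1.80 and 3.07 in animals 4, 9, 11, 13, 16, 25 and 26, was 0.65 in animal 21, and was -0.11, -0.54 and 0.03 in animals 17, 22 and 24. The summed level of the 6 ran from 12.1 to 25.4 on the normal arrays and from 13.4 to 87.9 on the OSCC arrays, in units of the array's 75th percentile. The median of 9 T and NK cell genes, of which 4 rose and 5 did not pass, was highest in animals 25, 11, 9 and 21, at 2.31, 2.16, 1.62 and 1.56, and lowest in animal 22 at -1.29. Of 4 neutrophil genes S100a8, S100a9 and Csf3r rose, with S100a9 at 4.78 ± 0.75. The fourth, Mpo, differed by -0.38 ± 0.26, did not pass and was undetected on all arrays. The median of the 4 was between 4.70 and 6.70 in those same 7 animals and between -0.28 and 2.05 in the other 4. Of 7 macrophage genes 6 rose, with summed levels from 14.2 to 34.5 in normal tissue and from 19.2 to 63.5 in OSCC.

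Of 3 plasmacytoid dendritic cell genes, which mark a main source of type I interferon, Siglech rose and was detected on 5 arrays, all of OSCC, while Tcf4 and Il3ra fell. Muscle went the other way: 5 of 6 skeletal muscle genes were called lower and 1 did not pass, with summed levels from 1039 to 2104 in normal tissue and from 57.7 to 1942 in OSCC. Their median difference was between -4.58 and -1.26 in 8 pairs but 0.52, 0.26 and 0.41 in animals 21, 22 and 24. All 4 serous gland genes found were called higher, with summed levels from 0.124 to 2.58 in normal tissue and from 2.0 to 4369 in OSCC. No squamous epithelium gene passed among 6, but the pairs varied. Their median difference was -1.12 in animal 24, -0.46 in animal 22, -0.39 in animal 4 and -0.085 in animal 17. In the remaining pairs it was above 0, up to 0.80 in animal 21. The lowest pair difference was -3.53 for Krt5 and -4.33 for Krt14. The part of these cell types in the interferon-stimulated genes was not tested.

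The arrays themselves also differed between pairs, in a split that matched that of the members' medians only in part. Animal 21, with a members' median of 0.53, stood here with animals 17, 22 and 24. The 75th percentile of signal, by which each array was scaled, was 1.54 to 3.54 times as high on the OSCC array as on the normal array in animals 4, 9, 11, 13, 16, 25 and 26, and 0.892, 0.746, 0.907 and 0.814 times as high in animals 17, 21, 22 and 24. The large and small differences of Ifit3 split the pairs in exactly this way. The share of probes detected ran from 48.4% to 56.1% on normal arrays and from 52.3% to 65.5% on OSCC arrays. The part of signal strength in the pattern over pairs was not tested. The members' median lay above that of all genes in 8 pairs under the scaling used here and with quantile normalization, and in 7 after normexp correction, where the members' median less that of all genes was -0.25 in animal 9. After that correction the median of all genes itself was 1.09 in animal 9, 1.34 in animal 17 and -1.12 in animal 4. Under the scaling used here it was -0.31, 0.05 and -0.35, so the correction shifted most genes of these pairs together.

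**Figure D4:**
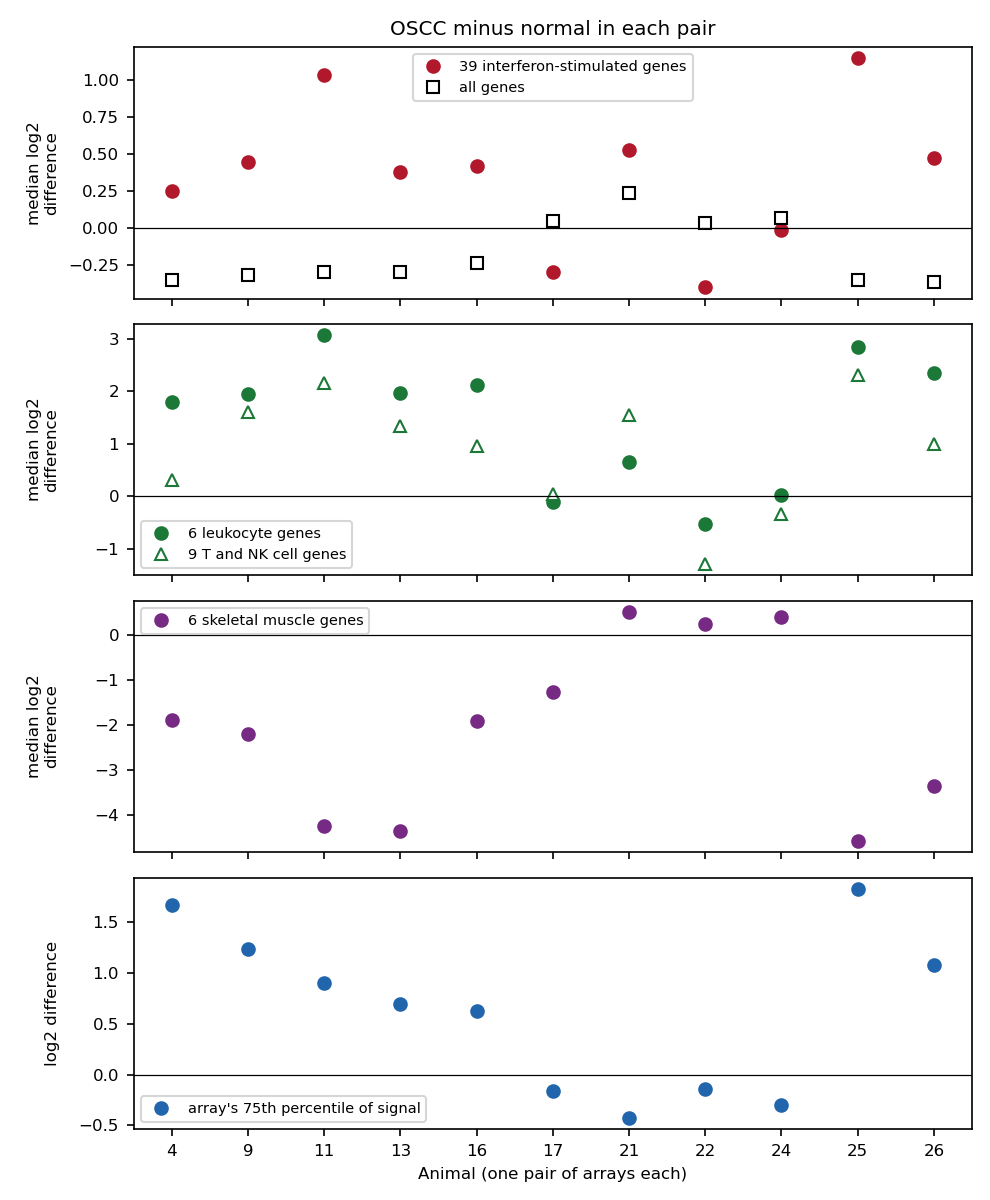
For each animal the upper panel shows the median log2 difference (OSCC minus normal) of 39 interferon-stimulated genes and of all genes, and the lower panels the medians of leukocyte, T and NK cell and skeletal muscle genes and the log2 difference of the array's 75th percentile of signal. In animals 17, 22 and 24 the interferon-stimulated genes lie below all genes, the leukocyte genes lie near or below 0, and the 75th percentile is lower in OSCC.

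Most members rose and fell together to different degrees, while Mx2 and Oas1b ran against the others. Over the 11 pairs, Pearson's r between the difference of a member and the median of the other members had a median of 0.72. It was at least 0.8 for 15 members, led by Eif2ak2 (0.94), Parp9 (0.91) and Dhx58 (0.90), although the mean difference of Eif2ak2, the kinase that halts translation on viral RNA, was 0.14 ± 0.11 with this probe, the brighter one. Its second probe, detected on 4 normal and 11 OSCC arrays, rose by 0.94 ± 0.23 (SE, n = 11; limma adjusted p = 0.00786) and was higher in 10 of 11 pairs, so the probes of Eif2ak2 disagree. The r was under 0.3 for 5 members, namely Bst2 (0.24), Ifit1 (-0.03), Oas2 (-0.17), Mx2 (-0.62) and Oas1b (-0.69). These r describe 11 pairs that share arrays and scaling among all genes.

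Among genes outside the list, the 10 whose pair differences ran closest to the members' median were LOC360997 (r = 0.98), Ptprcap (0.97), Il2ra (0.96), Cst7 (0.95), Vcam1 (0.95), RGD1563091 (0.95), Fgd2 (0.94), Zap70 (0.94), RGD1566254 (0.94) and Casp4 (0.94). They were ranked among 11605 genes whose probe was detected on at least 11 arrays, over which r had a median of 0.04 and a 99th percentile of 0.87. Ptprcap binds the leukocyte antigen Cd45, Il2ra is a chain of the interleukin-2 receptor, Zap70 is a kinase of T cell receptor signaling, and Vcam1 is the endothelial ligand by which leukocytes adhere. Of the 10, Il2ra, Cst7, Zap70 and Casp4 were called higher, at 1.47, 1.92, 1.15 and 1.07.

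Beyond the 42 genes, a wider list of 95 genes of the interferon pathway held 75 on the array. Of these, 10 were called higher and 2 lower, beside 7.48% and 7.24% of all genes. At the adjusted p alone 32 rose and 5 fell, beside 17.0% and 27.9% of all genes. Their median difference was 0.35, beside -0.21 for all genes.

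Of 11 ligands 5 had a probe. Ifnb1 and Ifng were detected on 0 of 22 arrays, and Ifnk on 2, both of OSCC. Ifna4 was called higher, at 1.59 ± 0.30 (SE, n = 11; limma adjusted p = 0.00177), running from -3.53 over -3.08 to -2.41 in normal tissue and from -2.97 over -1.25 to -0.05 in OSCC. Ifna1 was called lower, at -1.71 ± 0.44 (limma adjusted p = 0.0107), but was detected on only 4 normal and 2 OSCC arrays. The Ifna genes are closely similar to each other, and a probe may read several of them, so the gene behind either signal is uncertain.

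All 4 receptor chains on the array rose. Ifnar1 differed by 0.86 ± 0.21, Ifngr1 by 0.53 ± 0.14, Ifngr2 by 0.53 ± 0.13 and Il10rb, a chain of the type III interferon receptor, by 0.77 ± 0.17 (SE, n = 11; limma adjusted p = 0.00682, 0.0124, 0.00846 and 0.00374). Of these, 0 reached 2-fold. The kinases Jak1 and Jak2 rose in 11 of 11 pairs, by 0.51 ± 0.11 and 0.94 ± 0.15.

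Irf3 fell by 0.48 and Tlr3, a sensor of double-stranded RNA, fell by 0.92 on the log2 scale, while Irf8, a factor of myeloid cells, was called higher at 1.54 ± 0.44 and Tlr7, a sensor of single-stranded RNA, at 1.47 ± 0.18.

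The inhibitor Socs3, which blocks receptor-bound kinases, was called higher at 2.39 ± 0.39 (SE, n = 11; limma adjusted p = 0.000942), and all 11 OSCC arrays (-1.26 over 1.38 to 2.42) lay above all normal arrays (-2.24 over -1.66 to -1.30). Socs1 was called higher at 1.22 ± 0.35. Of 37 further interferon-induced genes 5 were called higher, beside 7.48% of all genes. They were Plscr1 (2.07 ± 0.30), Cd274 (1.92 ± 0.27), Trim21 (1.46 ± 0.26), Lgals3bp (1.10 ± 0.36) and Casp1 (1.10 ± 0.24). Gbp1 was called lower at -2.18 ± 0.56 (SE, n = 11 for each), beside 7.24% of all genes called lower. Cd274 encodes the checkpoint ligand PD-L1. Trim21 was detected on 6 arrays, all of OSCC. The chemokines Cxcl9, Cxcl10 and Cxcl11, which draw T cells, differed by -0.03 ± 0.30, 0.26 ± 0.50 and 0.89 ± 0.62 and did not pass.

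The promoters of the members were searched for the letters of both elements in the RefSeq sequences of build GRCr8, which hold 250 bases before and 50 bases after each gene's start. The ISRE was searched as GAAA, any 2 bases and GAAA again, and the GAS as TTC, any 3 bases and GAA, on both strands, and matches may overlap. A promoter was found for 30 of the 42 genes. The ISRE letters stood in 19 of these (63.3%), beside 3.92% of all 33469 promoters, and the GAS letters in 9 (30.0%), beside 8.87%. Of the 10 genes with a promoter that rose, 5 held ISRE letters (Ifit3, Oas3, Ifih1, Rsad2 and Gbp2) and Irf1 held GAS letters. The 2 genes that fell, Oas1b and Ifi27, both held ISRE letters, as did 10 of 15 genes that did not pass. Oasl, with the second largest difference, held neither.

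Sequences are shown for 4 genes that rose (Ifit3, Gbp2, Rsad2 and Irf1) and for 3 with bright probes that did not (Oas1b, Ifi27 and Bst2), to set their elements side by side. Each is the 200 bases before the start, 5′ to 3′ on the gene's strand, with the matched letters in capitals.
Ifit3, chr1:241527126-241527325, + strand: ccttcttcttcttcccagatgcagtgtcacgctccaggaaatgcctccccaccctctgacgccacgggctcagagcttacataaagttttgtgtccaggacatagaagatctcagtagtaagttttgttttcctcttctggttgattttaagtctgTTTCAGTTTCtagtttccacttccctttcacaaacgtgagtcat
Gbp2, chr2:234005527-234005726, + strand: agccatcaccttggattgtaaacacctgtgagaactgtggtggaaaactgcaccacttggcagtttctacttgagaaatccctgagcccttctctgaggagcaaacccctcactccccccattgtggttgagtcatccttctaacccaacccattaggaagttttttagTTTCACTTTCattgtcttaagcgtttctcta
Rsad2, chr6:48788121-48788320, - strand: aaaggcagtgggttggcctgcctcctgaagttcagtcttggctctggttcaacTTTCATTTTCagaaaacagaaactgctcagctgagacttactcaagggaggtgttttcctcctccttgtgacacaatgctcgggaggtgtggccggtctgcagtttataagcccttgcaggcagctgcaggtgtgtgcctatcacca
Irf1, chr10:38417735-38417934, + strand: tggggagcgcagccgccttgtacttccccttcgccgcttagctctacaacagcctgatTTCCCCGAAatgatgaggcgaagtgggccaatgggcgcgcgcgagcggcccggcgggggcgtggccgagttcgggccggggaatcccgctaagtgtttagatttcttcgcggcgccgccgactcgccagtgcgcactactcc
Oas1b, chr12:41395853-41396052, - strand: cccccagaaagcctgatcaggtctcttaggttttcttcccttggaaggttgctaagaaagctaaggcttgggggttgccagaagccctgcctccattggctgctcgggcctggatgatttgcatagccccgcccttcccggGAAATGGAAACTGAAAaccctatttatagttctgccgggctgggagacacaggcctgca
Ifi27, chr6:128355112-128355311, + strand: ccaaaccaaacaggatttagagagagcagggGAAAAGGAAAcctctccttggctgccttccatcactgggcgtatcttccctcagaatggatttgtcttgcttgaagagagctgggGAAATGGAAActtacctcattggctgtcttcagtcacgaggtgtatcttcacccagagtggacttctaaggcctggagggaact
Bst2, chr16:18254968-18255167, - strand: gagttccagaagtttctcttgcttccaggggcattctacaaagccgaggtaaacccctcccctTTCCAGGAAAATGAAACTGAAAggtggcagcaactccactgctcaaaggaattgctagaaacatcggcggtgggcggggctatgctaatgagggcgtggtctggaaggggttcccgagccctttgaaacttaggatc

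The matches of Ifit3 and Gbp2 begin 44 and 31 bases before the start and are on the opposite strand, as is that of Rsad2, 147 bases before it. In Irf1 the capitals are the GAS letters, 142 bases before the start. Oas1b holds 2 overlapping ISRE matches 59 and 53 bases before the start, and Ifi27 holds 2 apart from each other, at 169 and 84 bases. In Bst2 the GAS letters run into 2 overlapping ISRE matches between 137 and 125 bases before the start. Genes with the same letters near the start thus stood on both sides of 0 in OSCC, Ifit3 at 2.83 and Oas1b at -0.41. A match is a description of letters and not a measured binding site.

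**Figure D5:**
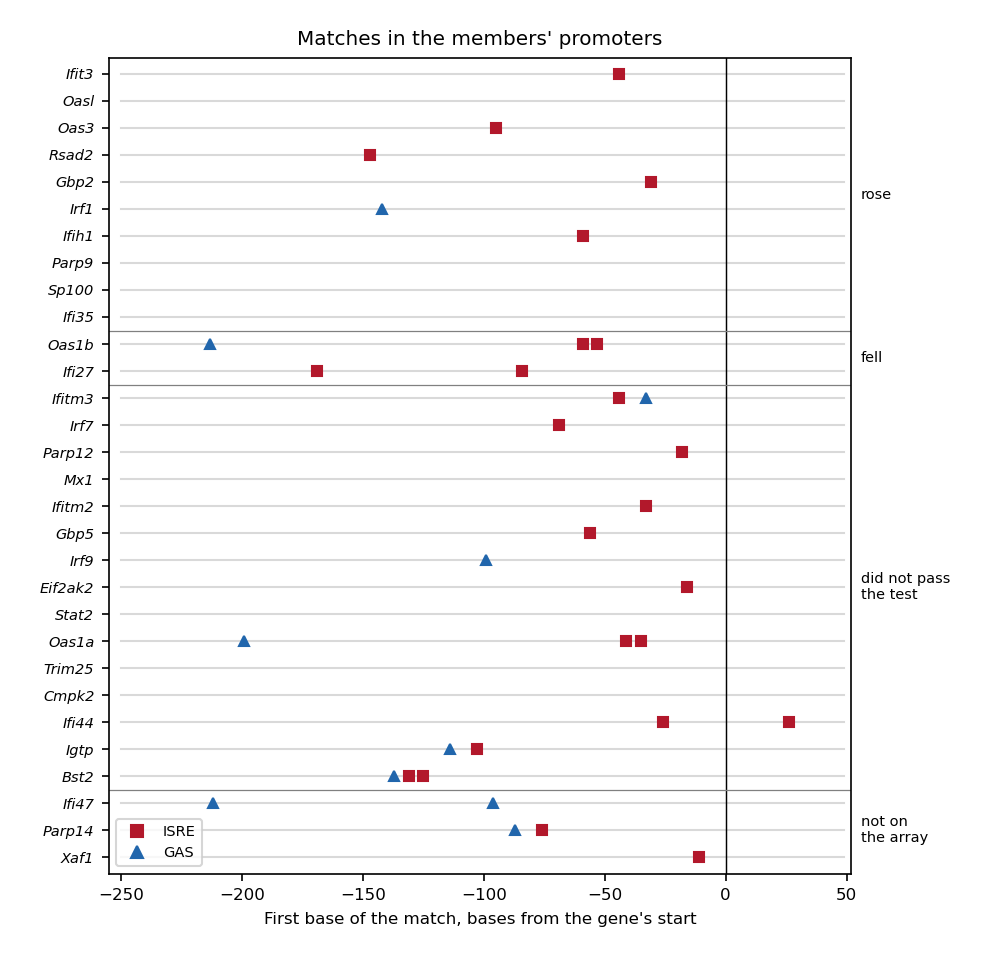
Positions of ISRE and GAS matches, in bases from the gene's start, are marked in the promoters of 30 interferon-stimulated genes, ordered by whether the gene rose, fell or did not pass in OSCC or was not on the array. Matches stand in all 4 sets, and 8 promoters, Oasl among them, hold neither.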

How the data were processed

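RNA of 11 OSCC and 11 normal tongue pieces was hybridized to single-color Agilent 4x44K rat arrays. The deposited intensity values are the processed signals of Feature Extraction, background-subtracted and detrended by the authors, on a linear scale. A deposited ratio of each signal to the 75th percentile of its array served as an alternative. Control spots and 9196 outlier spots (0.975%) were left out, the log2 signals of a probe were averaged, and the 75th percentile of the array was subtracted. The paired test, fitted in R 4.3.3 with limma 3.58.1, had tissue and rat as its terms, after a check on simulated data, with Benjamini-Hochberg adjustment over 30367 probes. Rat marks both tissues of 1 animal, so it pairs the arrays. Deviations of paired arrays from their group means correlated between -0.21 and 0.24. Members and gene lists were chosen with earlier results of these data known. Described in full were called members, the 5 brightest, those with calls that changed or probes that disagreed, and in the pathway list ligands, receptors and called genes; 1 gene of that list is not reported here. Alternatives changed scaling, background correction, dim-probe filter, scan day, slide, pairing, test, symbols and the pairs used. The number of arrays limits the precision.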

Additional observations from a re-analysis of the deposited data

How the results depend on the processing

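The 5 members called higher became 2 after normexp background correction, 3 with the filter for probes well above background on at least 11 arrays, 0 with scan day as a term, 3 in the pairs scanned on different days and 8 without animals 21, 22 and 24, and ranged from 3 to 8 with each pair left out. They were 3 without animal 11, 16, 25 or 26, 7 without animal 17 or 24 and 8 without animal 22. The count was 5 with no replicate block (4227 probes called, beside 4201 in the paired fit), 4 to 7 under the other alternatives run, and 0 members were called lower under any. Probes called fell to 1697 after normexp correction and 3 with scan day as a term, and were 6924 without animals 21, 22 and 24. The fit with scan day rests on the pairs of animals 4 and 9 alone. After normexp correction the median of all genes ran from -1.12 in animal 4 to 1.34 in animal 17. With each pair left out they ranged from 3649 to 4799. The median difference of the members lay between 0.13 and 0.45 under all alternatives, lowest with arrays scaled to their median, where that of all probes was -0.44 and 32.8% of called probes were higher, beside -0.24 and 49.6%; after normexp correction it was 40.3%. Members at the adjusted p alone were 9 higher and 5 lower with median scaling and 6 and 0 after normexp correction. Pathway genes called higher were 10, but 3 after normexp correction, 0 with scan day and 19 without the 3 animals. The cause of these changes was not tested.

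Some uncalled members near 0 changed sign. Oas1a was -0.17 with median scaling, -0.67 with scan day and -0.024 without animals 21, 22 and 24, and ranged from -0.091 to 0.20 with each pair left out. Stat2 was -0.13 with median scaling and -0.058 with scan day. Ddx58 was -0.075 with quantile normalization and -0.16 with median scaling, and ranged from -0.036 to 0.20. Eif2ak2 was -0.060 and Trim25 -0.19 with median scaling, and Trim25 was -0.0065 in pairs scanned on different days, with a range of -0.031 to 0.11. Cmpk2 was 0.067 with detected-probe scaling and 0.019 in pairs scanned on different days, with a range of -0.095 to 0.050. Ifi44 was 0.31 with scan day, with a range of -0.17 to 0.018, and Igtp 0.38 with scan day.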
